A study of Mus musculus with 12 samples.

Results

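Sphingosine-1-phosphate (S1P) is made, exported, sensed and broken down by a small set of enzymes, a transporter and receptors, and 8 of their genes were followed here in mouse heart: the kinases Sphk1 and Sphk2, the receptors S1pr1, S1pr2 and S1pr3, the exporter Spns2, the phosphatase Sgpp1 and the lyase Sgpl1. They were picked by name from the 31722 genes of one expression table, with their CCL4 and Control values already known, so every difference between the groups in these 8 genes is a description and carries no test. The table covered heart tissue of 12 C57BL/6J mice, 6 of a CCL4 group and 6 of a Control group. CCL4 is carbon tetrachloride, a solvent that damages the liver and was used to model cirrhosis, and the question was how that liver disease bears on the heart. Dose, duration, vehicle, sex, age and the hour at which hearts were taken are not given in the sources used here, and neither is the part of the heart that was sampled.

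S1P is a lipid signal formed from sphingosine by sphingosine kinases, with SPHK1 found mainly in the cytosol and SPHK2 mainly in the nucleus, mitochondria and other internal membranes. SPNS2 carries S1P out of endothelial cells, and outside the cell it acts on G protein-coupled receptors of which S1PR1 tightens the endothelial barrier and is also carried by cardiomyocytes. S1P phosphatases turn the lipid back into sphingosine, while the lyase SGPL1 cleaves it irreversibly, which is the exit from the sphingolipid pathway.

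All values are RPKM, which scales reads to the length of a gene's exons and to the size of the library, so levels of different genes can be set side by side per length. Log2 fold changes are CCL4 minus Control and were taken after adding 1 to each RPKM value, so they come out too small for genes near 1 RPKM or lower. The libraries held 26352337 to 63408183 reads as recovered from the smallest steps of the RPKM values. Hearts correlated with each other at 0.944 to 0.990, and p-values measure only the spread between these hearts. The tissue label stood beside high cardiomyocyte markers, with Myh6, the main myosin heavy chain of mouse cardiomyocytes, at 13468 ± 2388 RPKM in CCL4 hearts and 16213 ± 1462 RPKM in Control hearts (SD, n = 6 each). Myl7, a myosin light chain of the atria, spanned 0.811 to 307 RPKM in CCL4 hearts and 9.47 to 419 RPKM in Control hearts, so hearts of both groups differed widely in an atrial marker. Its median was 16.9 RPKM in CCL4 hearts and 160 RPKM in Control hearts, and 5 CCL4 hearts lay below the Control median. Of 4 atrial markers, 3 had a lower mean in CCL4 hearts. Their summed RPKM averaged 5487 in CCL4 hearts and 4559 in Control hearts.

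In these hearts Sphk2 lay higher in CCL4 than in Control with no overlap between groups, S1pr1 and S1pr3 lay lower on average with overlap, while the groups of Sphk1, S1pr2, Sgpl1, Sgpp1 and Spns2 overlapped with group means closer together than the spread of the CCL4 hearts. Of the 8 genes, 6 reached 0.5 RPKM in at least 6 hearts and entered the fit across 14087 genes. None of the 6 was called at an adjusted p under 0.05 by limma, where 0.00% of all tested genes were called and the smallest adjusted p of any gene was 0.0731. At an unadjusted p under 0.05, 1 member was higher (1.60% of all tested genes) and 2 were lower (8.58% of all tested genes). In either direction these shares come to 10.2% of all tested genes. A separation without overlap, CCL4 higher, held for 1 member and for 0.0355% of all tested genes, and CCL4 lower for 0 members and 0.724% of all tested genes (0.760% in either direction). The median log2 fold change of the 6 was 0.07, beside -0.05 over all tested genes. The calls depend on how hearts are weighted and on single hearts. With array weights, which give variable hearts less weight, limma called S1pr1, S1pr3, Sgpl1 and Sphk2 together with 16.0% of all tested genes. Sphk2 was called without CCL4 replicate 1 (0.334% of all tested genes), without Control replicate 1 (0.220%) and with a covariate for atrial markers (0.135%), and without both of those hearts Sphk2 and S1pr3 were called (2.29%). Since this contrast was known when the genes were picked, nothing is read from these shares.

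**Figure D1:**
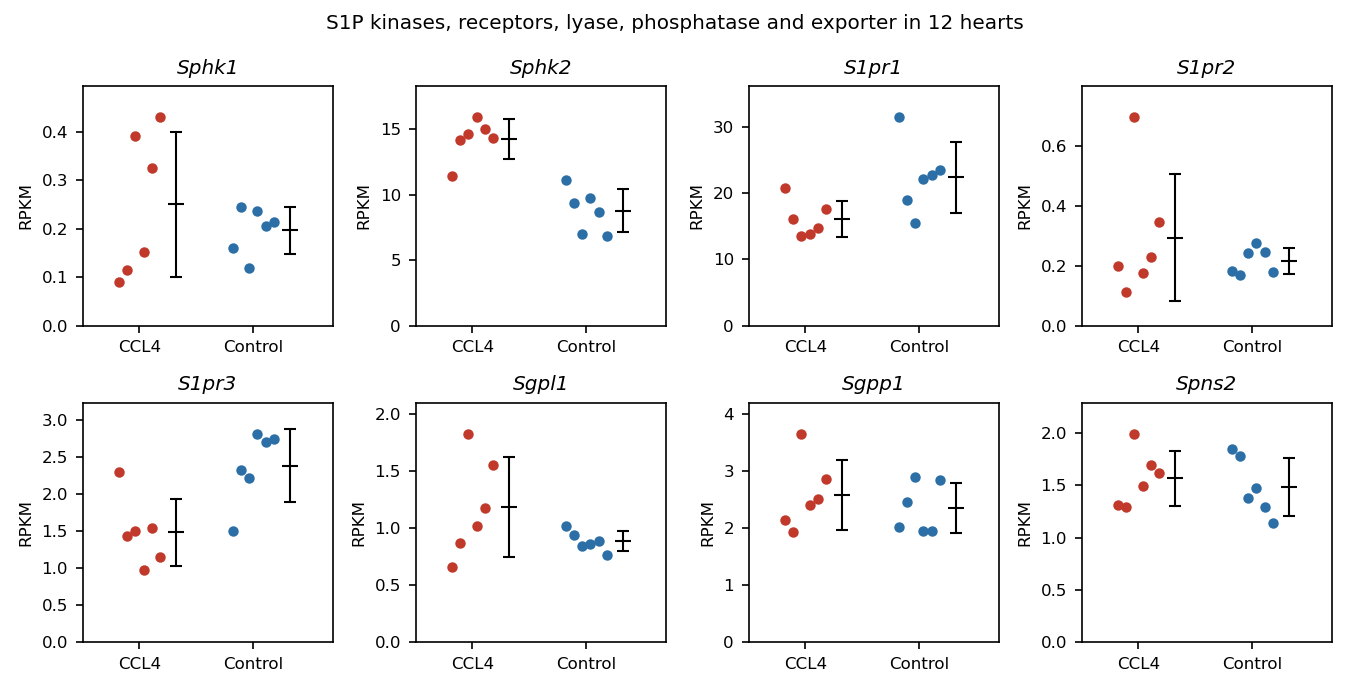
Level of each of the 8 genes (y axis, RPKM, starting at 0) in CCL4 hearts (left in each panel) and Control hearts (right), one point per heart, with group mean and SD. Sphk2 is the one gene whose groups do not meet: CCL4 hearts span 11.5 to 15.9 RPKM and Control hearts 6.83 to 11.1 RPKM.

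The kinases stood far apart in level. Sphk2 (chr7:45709467-45718002, GRCm38, minus strand) had a lowest, median and highest level of 11.5, 14.5 and 15.9 RPKM in CCL4 hearts, against 6.83, 9.03 and 11.1 RPKM in Control hearts. Every CCL4 heart lay above every Control heart, and the lowest CCL4 heart and the highest Control heart, both replicate 1 of their group, were closest to each other. Sphk2 averaged 14.3 ± 1.5 RPKM in CCL4 hearts and 8.80 ± 1.67 RPKM in Control hearts (SD, n = 6 each), a ratio of 1.62 and a log2 fold change of 0.65 (SE 0.12). Sphk1 (chr11:116530925-116536674, plus strand), the kinase known to be induced by growth factors and cytokines, had a lowest, median and highest level of 0.0897, 0.238 and 0.430 RPKM in CCL4 hearts, against 0.120, 0.210 and 0.245 RPKM in Control hearts. CCL4 replicates 3, 5 and 6 lay above every Control heart and 2 CCL4 hearts lay below every Control heart. Only 22 to 103 reads stood behind each Sphk1 value. It did not meet the level filter, and its log2 fold change without the filter was 0.06 (SE 0.07).

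Sphk2 has its start and Dbp its start at opposite ends of the same locus, and the genes run toward each other. Dbp encodes a clock-driven transcription factor whose level swings strongly over the day. The RefSeq windows of GRCm38.p6 from 250 bases before to 50 bases after each start are given for Sphk2 and Dbp, since the question here is whether the Sphk2 value is its own; the capitals mark a full cAMP response element.
Sphk2, first start, chr7:45717953-45718252, minus strand: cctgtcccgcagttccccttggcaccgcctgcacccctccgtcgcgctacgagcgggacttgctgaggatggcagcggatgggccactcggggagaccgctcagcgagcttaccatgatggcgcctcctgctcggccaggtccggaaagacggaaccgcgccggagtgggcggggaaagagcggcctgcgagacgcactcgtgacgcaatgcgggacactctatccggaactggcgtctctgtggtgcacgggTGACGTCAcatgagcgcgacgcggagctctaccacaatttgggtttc
Sphk2, second start, chr7:45715158-45715457, minus strand: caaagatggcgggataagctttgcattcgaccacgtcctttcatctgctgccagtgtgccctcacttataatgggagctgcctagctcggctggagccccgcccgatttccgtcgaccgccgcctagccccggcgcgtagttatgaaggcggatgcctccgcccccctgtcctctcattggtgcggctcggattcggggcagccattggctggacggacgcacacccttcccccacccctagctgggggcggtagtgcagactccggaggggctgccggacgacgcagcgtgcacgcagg
Dbp, chr7:45704997-45705296, plus strand: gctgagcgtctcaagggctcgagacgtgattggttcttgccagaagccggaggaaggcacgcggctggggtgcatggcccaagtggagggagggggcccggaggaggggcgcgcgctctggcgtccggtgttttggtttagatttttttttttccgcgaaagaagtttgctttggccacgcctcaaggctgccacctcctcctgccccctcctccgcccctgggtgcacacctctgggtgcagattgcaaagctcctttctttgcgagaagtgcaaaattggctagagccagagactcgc
Both strands of 32851 such windows were searched for the cAMP response element TGACGTCA, the E-box CACGTG bound by CLOCK and BMAL1, and the D-box TTANGTAA bound by DBP and its relatives, with the cAMP response element added after the windows had been seen. These letters occur in 1.79%, 7.15% and 2.32% of all windows, in the order just given. Of the 7 members with a window, Sphk2 held the cAMP response element at base 3 after its first start, S1pr2 held it at -181 from its start, and Sphk1 held an E-box in a pair of overlapping windows (at -95 and -102). The other windows of the members and the Dbp window held none of the 3 motifs. A match is a description of these letters and shows neither binding nor its absence.

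Exons of Sphk2 and Dbp (chr7:45705088-45710203, plus strand) share 539 bases, chr7:45709665-45710203. These bases are 13.0% of the Sphk2 exon length and lie outside its coding sequence, while they are 18% of the Dbp exon length and include 213 of its coding bases. Of the annotated Sphk2 transcripts only Sphk2-202 reaches them, and the others end before them. The start of Sphk2 also overlaps exons of Rpl18, a ribosomal protein gene on the plus strand, over 373 bases.

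**Figure D2:**
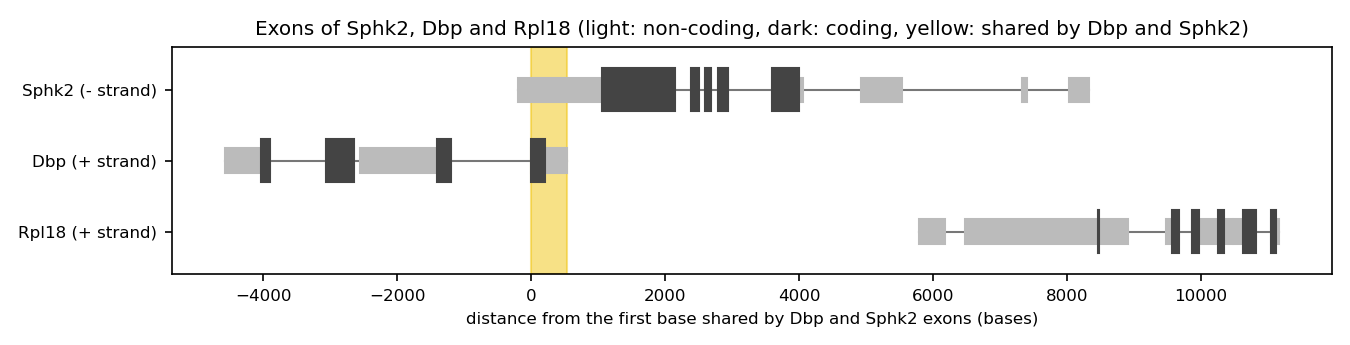
Exons of Sphk2, Dbp and Rpl18 along the locus (x axis, distance in bases from the first shared base), light for non-coding, dark for coding and yellow for the 539 bases shared by Dbp and Sphk2. The shared bases lie in the last, non-coding part of Sphk2 and in the end of Dbp.

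Dbp had a lowest, median and highest level of 23.8, 29.0 and 31.7 RPKM in CCL4 hearts, against 13.6, 19.2 and 22.3 RPKM in Control hearts. Its groups did not overlap either, and its log2 fold change was 0.63 (SE 0.13, limma adjusted p = 0.114). The ratio of Sphk2 to Dbp lay between 0.481 and 0.509 in CCL4 hearts, against 0.422 to 0.503 in Control hearts. The ratio thus varied far less over the 12 hearts than Dbp itself did. Its standard deviation on the log2 scale over the 12 hearts was 0.0721, the smallest of 13849 genes set against Dbp; the next was Haghl at 0.172 and the median gene was at 0.507. The correlation of Sphk2 with Dbp within CCL4 hearts was r = 0.982 (exact permutation p = 0.00278, adjusted p over 6 relations 0.0167) and rho = 0.943 (exact permutation p = 0.0167). Within Control hearts it was r = 0.952 (exact permutation p = 0.00694, adjusted 0.0208) and rho = 0.943 (exact permutation p = 0.0167). The adjusted p of both rho values was 0.05, which is at the threshold and does not pass it. Without the 2 hearts farthest from the median, r was 0.979 in CCL4 hearts and 0.718 in Control hearts. Any Dbp reads counted as Sphk2 would raise these correlations and steady the ratio. The permutation tests cannot tell such shared reads from a relation between the genes.

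**Figure D3:**
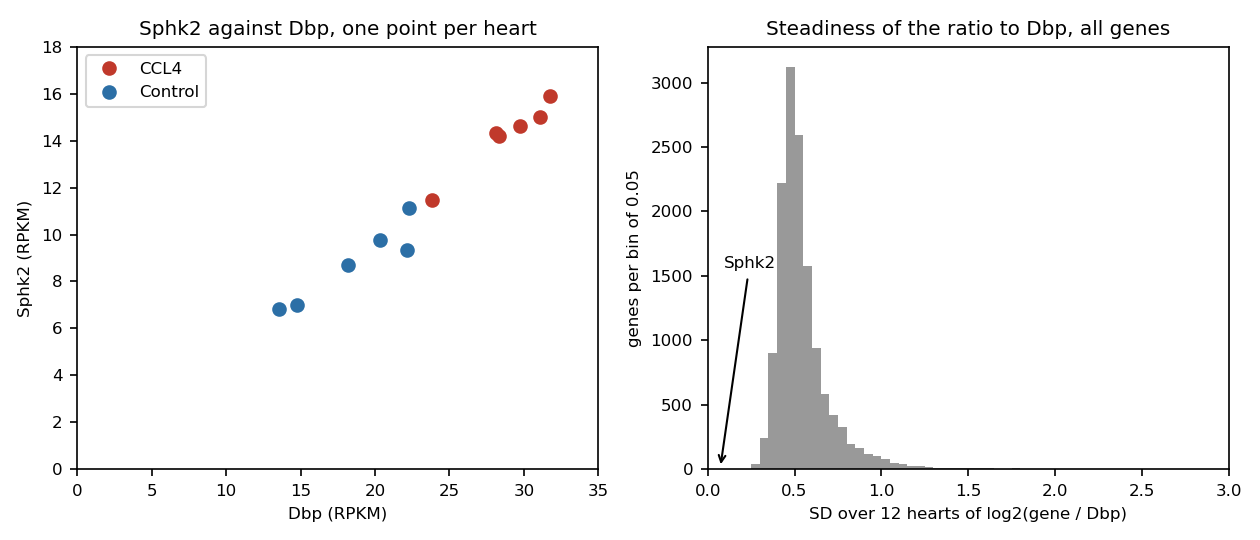
Left, Sphk2 (y axis, RPKM) against Dbp (x axis, RPKM), one point per heart; right, number of genes (y axis) by the standard deviation over 12 hearts of log2(gene / Dbp) (x axis). Hearts of both groups lie near one line through the origin, with ratios from 0.422 to 0.509, and Sphk2 sits alone at 0.0721 at the left end of the distribution.

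Whether Dbp reads could make the Sphk2 difference was put as a question of how many would be needed. In RPM, which is RPKM without the division by length, Sphk2 stood at 59.3 ± 6.24 in CCL4 hearts and 36.6 ± 6.93 in Control hearts, and Dbp at 86.2 ± 8.50 in CCL4 hearts and 55.5 ± 11.1 in Control hearts. Sphk2 differed by 22.7 RPM and Dbp by 30.7 RPM. If Dbp reads reached Sphk2 only through the shared bases, 73.9% of the Dbp difference would have to fall there. Those bases are 18% of Dbp exons and 29.3% of its main transcript of 1837 bases. At even coverage of Dbp exons they would bring Sphk2 3.73 ± 0.368 RPKM in CCL4 hearts and 2.40 ± 0.482 RPKM in Control hearts, or 26.2% of its value in CCL4 hearts and 27.3% in Control hearts. At even coverage of the main transcript they would bring 6.08 ± 0.599 RPKM in CCL4 hearts and 3.91 ± 0.785 RPKM in Control hearts. Of the Sphk2 difference of 5.46 RPKM this makes 1.33 RPKM (24.4%) over all exons or 2.17 RPKM (39.7%) over the main transcript. Taking the first amount away left 10.5 ± 1.14 RPKM in CCL4 hearts and 6.39 ± 1.23 RPKM in Control hearts, and the log2 fold change stayed at 0.65, as it must where the ratio to Dbp is nearly constant. With Dbp as a covariate it was 0.11 (SE 0.12), which takes away whatever both genes share. Coverage inside the shared bases cannot be read from gene totals, and 3′ ends can be covered unevenly, so the share of Dbp reads in the Sphk2 values was not measured beyond these estimates. Sphk2 exons also run on past the annotated end of Dbp. Dbp transcripts that passed that end would add reads there, which these sums leave out. Such read-through was not tested.

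Strand bears on how far such reads could be counted at all. The kit keeps strand, per the labels' protocols, and the counting setting is not given in the sources used here. In 36 pairs in which a gene lies wholly within exons of an opposite-strand gene of at least 10 RPKM, the inner gene stood at a median of 1.19 times the outer gene (quartiles 0.135 and 2.12), and it reached 0.5 of it or more in 20 pairs. The inner gene lay under 0.1 of the outer in 8 pairs, and 6 more inner genes had no listed value. For the 108 such pairs on the same strand the median was 0.135. Levels like those of the gene across occurred on the opposite strand too. Ratios there ran up to 17.1, inner genes differ in length and can have expression of their own, and some genes recur in several pairs. The pairs therefore do not settle how strand was treated in the counting. Reads of Dbp and Sphk2 in the shared bases cannot be told apart in these files. Rpl18 would bring 0.496 RPKM to Sphk2 in CCL4 hearts and 0.540 RPKM in Control hearts by the same even-coverage sum.

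Genes that share no exon with Dbp ran alongside Sphk2 as well. With group means removed, the genes most like Sphk2 over the 12 hearts were Dbp (r = 0.956), Haghl on chromosome 17 (r = 0.915) and Lcmt1 on chromosome 7 (r = 0.897), of 14086 genes compared. Tef, a relative of Dbp, ranked 16 (r = 0.855), the clock gene Per3 ranked 37 (r = 0.826) and Hlf, another relative, ranked 114 (r = 0.760). For Dbp itself the values were 0.917 for Haghl, 0.899 for Lcmt1, 0.808 for Tef, 0.727 for Per3 and 0.638 for Hlf. Rpl18 had r = -0.20 and Clock r = -0.33 with Sphk2. These correlations share libraries and depth and are descriptions.

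The clock genes around Dbp are given for the same hearts. Per3 stood at 4.21 ± 1.13 RPKM in CCL4 hearts and 2.21 ± 1.42 RPKM in Control hearts (log2 fold change 0.75, SE 0.23, limma adjusted p = 0.291). Tef stood at 9.53 ± 1.27 RPKM in CCL4 hearts and 7.44 ± 2.52 RPKM in Control hearts. Hlf stood at 1.71 ± 0.425 RPKM in CCL4 hearts and 1.1 ± 0.475 RPKM in Control hearts. The activators pointed the other way: Arntl was at 0.222 ± 0.139 RPKM in CCL4 hearts and 0.686 ± 0.281 RPKM in Control hearts, and Clock at 1.1 ± 0.235 RPKM in CCL4 hearts and 1.5 ± 0.185 RPKM in Control hearts. Of 16 tested clock genes, 7 were higher and 2 lower at an unadjusted p under 0.05, and 0 passed the adjusted threshold. Over all tested genes, 1.60% were higher and 8.58% lower at that unadjusted threshold. The hour of collection is not given, so a difference in hour and a difference in treatment cannot be told apart for Dbp, for these clock genes or for Sphk2.

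Among the receptors S1pr1 was by far the highest per length and S1pr3 followed. S1pr1 (chr3:115710433-115715072, minus strand) had a lowest, median and highest level of 13.5, 15.4 and 20.7 RPKM in CCL4 hearts, against 15.6, 22.4 and 31.4 RPKM in Control hearts. All 6 CCL4 hearts lay below the Control median and 3 lay below every Control heart, while the other 3 overlapped the lower Control hearts. It averaged 16.1 ± 2.73 RPKM in CCL4 hearts and 22.4 ± 5.31 RPKM in Control hearts, a log2 fold change of -0.43 (SE 0.15). Replicate 1 of the Control group was the highest heart for S1pr1, and without it the log2 fold change was -0.33. That heart also held the most summed atrial markers, 15033 RPKM. The highest CCL4 heart for S1pr1, also replicate 1, held the fewest of its group, 833 RPKM. With a covariate for atrial markers the log2 fold change of S1pr1 was -0.46. The part of atrial tissue in the S1pr1 values was not tested. S1pr3 (chr13:51408639-51422797, plus strand), a receptor of vascular smooth muscle and fibroblasts, had a lowest, median and highest level of 0.978, 1.47 and 2.3 RPKM in CCL4 hearts, against 1.51, 2.52 and 2.82 RPKM in Control hearts. All 6 CCL4 hearts were below the Control median, and the 2 hearts that closed the gap were replicate 1 of CCL4, at 2.3 RPKM, and replicate 1 of Control, at 1.51 RPKM. The log2 fold change was -0.45 (SE 0.13). Summed smooth muscle markers spanned 198 to 283 RPKM in CCL4 hearts and 228 to 381 RPKM in Control hearts; all 6 had a lower mean in CCL4, 3 of them at an unadjusted p under 0.05, with a median log2 fold change of -0.30. Summed fibroblast markers spanned 84.3 to 429 RPKM in CCL4 hearts and 71.6 to 206 RPKM in Control hearts; all 7 had a higher mean in CCL4, 2 of them at an unadjusted p under 0.05, with a median of 0.80. At that unadjusted threshold 8.58% of all tested genes were lower and 1.60% higher. None of these markers passed the adjusted threshold by limma, and their part in the S1pr3 values was not tested. S1pr2 (chr9:20962361-20976781, minus strand), a receptor that couples to several G proteins, had a lowest, median and highest level of 0.114, 0.216 and 0.696 RPKM in CCL4 hearts, against 0.171, 0.212 and 0.278 RPKM in Control hearts. One CCL4 heart, replicate 3, stood at 0.696 RPKM while the group medians were nearly equal. Its log2 fold change was 0.08 (SE 0.09), and -0.01 without that heart. Summed leukocyte markers in that heart were 24.3 RPKM, in the other CCL4 hearts 3.52 to 12.1 RPKM and in Control hearts 4.99 to 5.54 RPKM; their part in the S1pr2 value was not tested.

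Of the summed RPKM of the S1P receptors, S1pr1 made up 88.6 ± 2.24% in CCL4 hearts and 88.1 ± 3.26% in Control hearts. S1pr3 made up 8.13 ± 1.65% in CCL4 hearts and 9.86 ± 2.70% in Control hearts. S1pr2 made up 1.69 ± 1.37% in CCL4 hearts and 0.896 ± 0.287% in Control hearts. The remaining receptors were near the bottom of the range: S1pr4 averaged 0.0581 RPKM in CCL4 hearts and 0.0414 RPKM in Control hearts, and S1pr5 0.223 RPKM in CCL4 hearts and 0.234 RPKM in Control hearts. The share of S1pr1 differed between the groups by less than its standard deviation within either.

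Endothelial genes stood lower in CCL4 hearts as well, with 9 of 11 markers lower at an unadjusted p under 0.05 by limma and 0 past the adjusted threshold. Of all tested genes, 8.58% were lower at that unadjusted threshold. The sum of 11 endothelial markers spanned 152 to 235 RPKM in CCL4 hearts and 229 to 275 RPKM in Control hearts, and all 11 had a lower mean in CCL4. In bulk tissue fewer cells of a type and less RNA per cell cannot be told apart. S1pr1 divided by Cdh5, the endothelial cadherin, was 0.522 ± 0.125 in CCL4 hearts and 0.521 ± 0.163 in Control hearts, and divided by Pecam1 it was 0.640 ± 0.183 in CCL4 hearts and 0.665 ± 0.112 in Control hearts. With the endothelial score, the mean log2(RPKM + 1) of these markers, as a covariate, the log2 fold change of S1pr1 was -0.44 (SE 0.26). Within groups no relation of S1pr1 to that score was detected, and its sign hung on single hearts. The correlation was r = -0.12 in CCL4 hearts (exact permutation p = 0.797, rho = -0.26 with p = 0.658) and r = 0.172 in Control hearts (exact permutation p = 0.797, rho = -0.03 with p = 1), and the adjusted p was 0.822 for both. Leaving out replicate 3 gave r = 0.478 in CCL4 hearts and r = -0.64 in Control hearts, and leaving out Control replicate 1 gave r = 0.598. Among genes with a descriptive symbol and a mean of at least 1 RPKM, those most like S1pr1, with group means removed, were Rgcc (r = 0.900, rank 1 of all genes), Lims2 (r = 0.884, rank 4) and Gpr17 (r = 0.882, rank 5), while Pecam1 had r = 0.0351 and Cdh5 r = -0.22.

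The exporter Spns2 (chr11:72451638-72489904, minus strand) had a lowest, median and highest level of 1.30, 1.56 and 1.99 RPKM in CCL4 hearts, against 1.14, 1.43 and 1.85 RPKM in Control hearts. The groups overlapped widely, with a log2 fold change of 0.05 (SE 0.09). Set against Cdh5 it spanned 0.0427 to 0.0567 in CCL4 hearts and 0.0247 to 0.0489 in Control hearts, and 5 CCL4 hearts lay above every Control heart. With the endothelial score as a covariate its log2 fold change was 0.25 (SE 0.14). The correlation of Spns2 with that score was r = 0.807 in CCL4 hearts (exact permutation p = 0.0389, adjusted 0.0778; rho = 0.886, exact permutation p = 0.0333, adjusted 0.0667), which failed the adjustment and fell to 0.163 without the 2 hearts farthest from the median. In Control hearts it was r = 0.120 (exact permutation p = 0.822). Spns2 also overlaps Mybbp1a on the other strand over 131 exon bases. At even coverage, and if such reads were counted for Spns2, Mybbp1a would bring 0.378 RPKM (24.4% of Spns2) in CCL4 hearts and 0.413 RPKM (28.7%) in Control hearts.

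The genes of S1P removal differed in how much the hearts of a group varied. Sgpl1 (chr10:61098642-61147703, minus strand) had a lowest, median and highest level of 0.659, 1.1 and 1.83 RPKM in CCL4 hearts, against 0.766, 0.874 and 1.02 RPKM in Control hearts. CCL4 replicates 3, 5 and 6 lay above every Control heart and replicate 1 below them all. Its coefficient of variation was 36.9% in CCL4 hearts and 9.86% in Control hearts, and the log2 fold change was 0.19 (SE 0.11), or 0.11 without CCL4 replicate 3. Sgpp1 (chr12:75714249-75735729, minus strand) had a lowest, median and highest level of 1.94, 2.46 and 3.66 RPKM in CCL4 hearts, against 1.95, 2.24 and 2.90 RPKM in Control hearts. The groups overlapped, and the log2 fold change of 0.09 (SE 0.12) was 0.01 without CCL4 replicate 3.

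The same 3 CCL4 hearts in which Sphk1 and Sgpl1 were high had the highest fibroblast score, the mean log2(RPKM + 1) of 7 fibroblast markers. The relation was set up because this had been seen, so it is a description with no test. In CCL4 hearts Sgpl1 had r = 0.980 with the score (rho = 1) and Sphk1 had r = 0.918 (rho = 0.943). Without the 2 hearts farthest from the median, r was 0.933 for Sgpl1 and 0.944 for Sphk1. In Control hearts Sgpl1 had r = 0.644 (rho = 0.0857) and Sphk1 had r = -0.62 (rho = -0.83), and without Control replicate 1 the r of Sgpl1 was -0.16. Summed leukocyte markers put the CCL4 hearts in nearly the same order, with 24.3 RPKM in replicate 3, 12.1 RPKM in replicate 6 and 10.3 RPKM in replicate 5, against 3.52 to 6.47 RPKM in the other 3. CCL4 replicate 3 also had the lowest summed cardiomyocyte markers, 17968 RPKM, against 25111 to 27707 RPKM in the other CCL4 hearts. The part of any of these kinds of cell in the Sphk1 and Sgpl1 values was not tested.

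**Figure D4:**
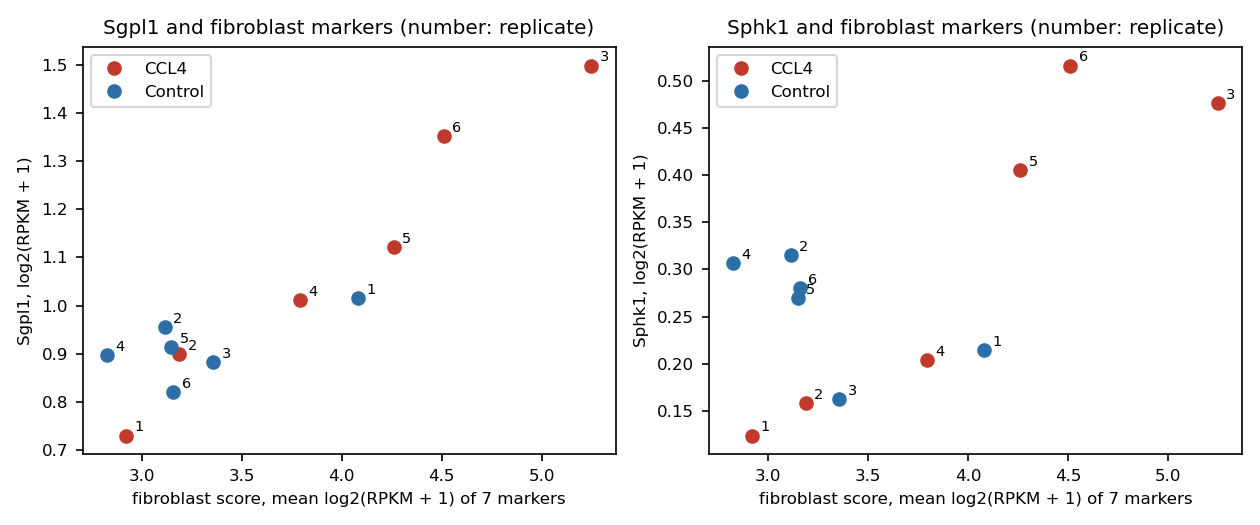
Sgpl1 (left) and Sphk1 (right), log2(RPKM + 1) on the y axis, against the fibroblast score on the x axis, one point per heart with its replicate number. In CCL4 hearts replicates 3, 5 and 6 are at the upper right in both panels.

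In Control hearts the levels ran from S1pr1 and Sphk2 through S1pr3, Sgpp1, Spns2 and Sgpl1 to S1pr2 and Sphk1, and neighbours in this order did not overlap except S1pr3 with Sgpp1 and S1pr2 with Sphk1. In CCL4 hearts S1pr1 and Sphk2 overlapped, with S1pr1 higher in 3 of 6 hearts, against 6 of 6 in Control hearts. Below them only the step from Sphk2 to Sgpp1 was free of overlap. S1pr1 and Sphk2, the receptor and the kinase at the top, stood closer together in CCL4 hearts in the deposited values. This order counts any Dbp reads as Sphk2: with the even-coverage amount taken away, Sphk2 spanned 8.38 to 11.8 RPKM in CCL4 hearts and 5.07 to 8.24 RPKM in Control hearts, below every S1pr1 value of the same group.

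Of the wider pathway, 60 genes on 4 lists were looked at, and by limma 0 passed an adjusted p under 0.05. For de novo ceramide synthesis, the making of the sphingolipid backbone, 11 of 17 genes were tested and 0 passed even an unadjusted p under 0.05, with a median log2 fold change of -0.01. Cers2, a ceramide synthase for very long chains, stood at 4.46 ± 1.13 RPKM in CCL4 hearts and 4.82 ± 0.211 RPKM in Control hearts (adjusted p = 0.775 by limma). Ormdl2, which restrains the first enzyme of the pathway, stood at 3.27 ± 0.598 RPKM in CCL4 hearts and 3.43 ± 0.134 RPKM in Control hearts. On the higher side were its relative Ormdl3, at 9.80 ± 1.7 RPKM in CCL4 hearts and 9.44 ± 0.719 RPKM in Control hearts, and the ceramide synthase Cers5, at 2.64 ± 0.722 RPKM in CCL4 hearts and 2.43 ± 0.130 RPKM in Control hearts. For ceramide and sphingosine turnover, 12 of 15 genes were tested, and the median was -0.05. At an unadjusted p under 0.05, 1 was lower (8.58% of all tested genes). This was Acer2, an alkaline ceramidase of the Golgi, at 1.11 ± 0.225 RPKM in CCL4 hearts and 1.54 ± 0.501 RPKM in Control hearts (log2 fold change -0.25, SE 0.12, limma adjusted p = 0.469). Asah1, the acid ceramidase of the lysosome that frees sphingosine, stood at 7.39 ± 2.80 RPKM in CCL4 hearts and 5.75 ± 0.705 RPKM in Control hearts (log2 fold change 0.26, SE 0.18, limma adjusted p = 0.656). Smpd1, the acid sphingomyelinase, stood at 4.49 ± 0.624 RPKM in CCL4 hearts and 5.06 ± 0.537 RPKM in Control hearts.

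Among other genes that handle S1P, 5 of 11 were tested and the median was 0.01. Plpp3, a surface phosphatase that dephosphorylates lipid phosphates outside the cell, stood at 13.4 ± 4.17 RPKM in CCL4 hearts and 16.0 ± 0.890 RPKM in Control hearts (log2 fold change -0.29, SE 0.16, limma adjusted p = 0.548), and 5 of 6 CCL4 hearts lay below every Control heart. Abca1 and Abcc1, membrane transporters that can export S1P, had log2 fold changes of 0.17 and 0.13. Plpp1, a relative of Plpp3, stood at 10.3 ± 2.79 RPKM in CCL4 hearts and 10.5 ± 1.29 RPKM in Control hearts. Among the genes that couple the receptors, with G protein subunits and arrestins among them, 15 of 17 were tested and all missed the threshold. Of these, 3 had a positive and 12 a negative log2 fold change, and the median was -0.07. Of all tested genes, 34.3% had a positive log2 fold change. Gna12, a G protein subunit that S1pr2 couples to, stood at 6.72 ± 0.397 RPKM in CCL4 hearts and 7.59 ± 0.745 RPKM in Control hearts (log2 fold change -0.15, SE 0.08, limma adjusted p = 0.527). Arhgef12, a guanine nucleotide exchange factor, stood at 6.04 ± 1.04 RPKM in CCL4 hearts and 7.02 ± 0.399 RPKM in Control hearts (log2 fold change -0.20, SE 0.10, limma adjusted p = 0.520). The arrestins, which end receptor signalling, had the smallest p-values on the higher side. Arrb2 stood at 3.29 ± 1.41 RPKM in CCL4 hearts and 2.67 ± 0.381 RPKM in Control hearts, and Arrb1 at 1.99 ± 0.765 RPKM in CCL4 hearts and 1.86 ± 0.225 RPKM in Control hearts.

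**Figure D5:**
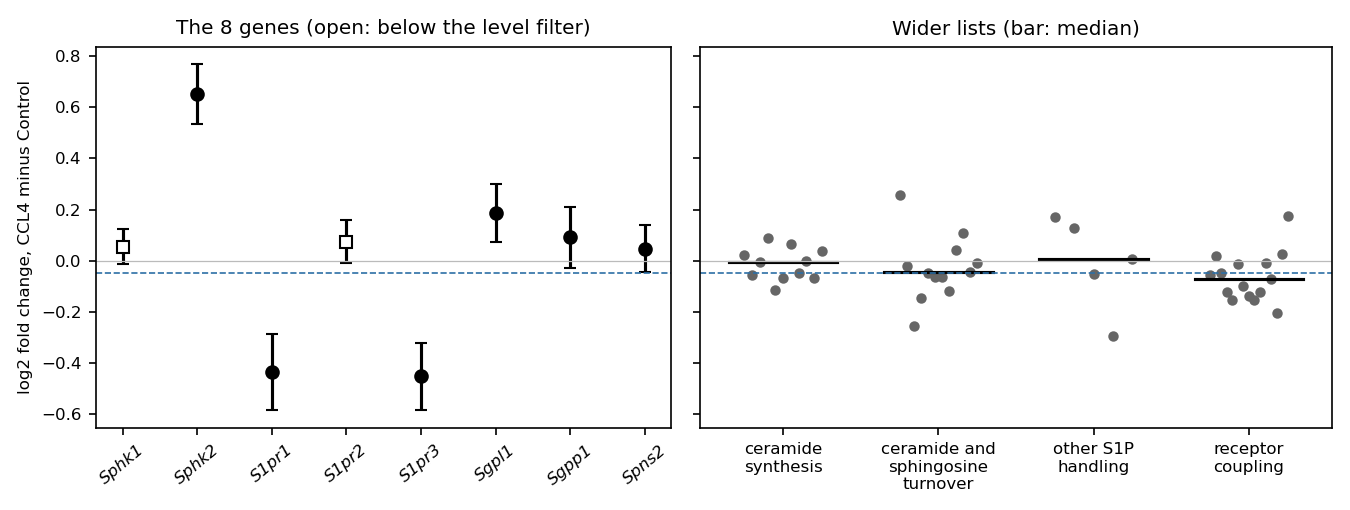
Left, log2 fold change (CCL4 minus Control, y axis) of the 8 genes with standard errors, open symbols for those under the level filter. Right, log2 fold changes of each tested gene of the 4 wider lists with the list medians as bars, which lie between -0.07 and 0.01; the dashed line is the median of all tested genes, -0.05.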

How the data were processed

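RNA from 12 hearts was extracted with TRIzol and made into stranded mRNA libraries, per the labels' protocols. Trimmomatic 0.36, featureCounts of Subread 1.5.1 and the build GRCm38 stand in the submitters' processing notes; what aligner, annotation release and strand setting were used is not given in the sources used here. RPKM values, as deposited, are normalised for length and depth by the authors. They were used as log2(RPKM + 1).

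Of 31722 genes, the 14087 with at least 0.5 RPKM in at least 6 libraries were tested in limma 3.58.1 (R 4.3.3) with the trend option, CCL4 against Control without a covariate, with Benjamini-Hochberg adjustment over all of them. The script was tested on simulated data. Relations within a group were Pearson's r and Spearman's rho with two-sided exact permutation tests over all 720 pairings (Python 3.11.15, pandas 2.3.3, numpy 2.4.6), and figures used matplotlib 3.10.9. Exons came from GENCODE M21 for GRCm38. With its exon lengths, 92.7% to 93.8% of the low values of a library (up to 30 reads) were within 0.05 of a whole number of reads. The values of S1pr3 were whole in 0 of 12 hearts and those of Sgpp1 in 1 of 12, so the authors' exon lengths may differ for both. Depth was read from these steps, of which 71.3% to 75.6% were even numbers, so a step may be a mate of a pair.

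The members and gene lists were chosen with earlier results of these data known. Named were all 8 members, genes overlapping their exons, the 2 smallest p-values in each direction per wider list at a mean of at least 1 RPKM, the 3 genes with a descriptive symbol and a mean of at least 1 RPKM most like Sphk2 and S1pr1, and set clock and marker genes. One gene that this rule names is not reported here. P-values of relations were adjusted over the 6 with Dbp and the endothelial score. The relations to the fibroblast score (no test), the coverage of the main Dbp transcript, the atrial covariate and the removal of both replicates 1 were added after the values had been seen. Alternatives tried were another pseudocount, other filters and scalings, array weights, a replicate block and leaving out each heart.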

Additional observations from a re-analysis of the deposited data

Results flagged for a closer look

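The ratio of Sphk2 to Dbp was 0.422 in Control replicate 2, apart from the other 5 Control hearts at 0.473 to 0.503. The gap to the nearest heart was 0.629 of the whole range of the group, just above Dixon's critical value for 6 samples. In that heart Sphk2 reads came to 58.6% of Dbp reads. Chance flags about 1 in 20 such groups, and 18 groups were examined.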

How the results depend on the processing

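The count of genes past an adjusted p of 0.05 was 0 as reported, 2249 with array weights, 323 without both replicates 1, 19 with the atrial score as a covariate and 0 to 47 with single hearts left out (47 without CCL4 replicate 1, 31 without Control replicate 1). On the wider lists, with 11, 12, 5 and 15 genes tested, 3 were called with array weights instead of 0, beside 16.0% of all tested genes. These were Abca1 (0.29), Asah1 (0.32) and Smpd1 (-0.22, each on the log2 scale). The cause was not tested.

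Of the members' log2 fold changes, S1pr2 turned, to -0.01 without CCL4 replicate 3. Without that heart, which had the lowest summed cardiomyocyte markers, Spns2 was at 0.00, Sgpp1 at 0.01, Sphk1 at 0.02 and Sgpl1 at 0.11. Sphk1 was also at 0.02 without CCL4 replicate 6. No other direction turned under the alternatives run, which for Sphk1 and S1pr2, below the level filter, were the pseudocount, scalings and left-out hearts. The value of Sphk2 was 0.59 to 0.72 with single hearts left out and 0.11 with Dbp as a covariate, and that of S1pr3 was -0.67 with a pseudocount of 0.1. Without the 2 hearts farthest from the median, 4 hearts of a group remained. For Sphk2 with Dbp, r was then 0.979 in CCL4 hearts (exact permutation p = 0.0833) and 0.718 in Control hearts (exact permutation p = 0.292). For Spns2 with the endothelial score in CCL4 hearts, r was 0.163 (exact permutation p = 0.833). The last was also 0.282 with median-of-ratios scaling, 0.705 with mitochondrial genes left out of the scaling, and 0.526 to 0.975 with single hearts left out, lowest without CCL4 replicate 3. For S1pr1 with that score it was -0.37 to 0.478 in CCL4 hearts and -0.64 to 0.598 in Control hearts with single hearts left out.

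Replicate numbers occur in both groups. Hearts of the same number deviated from their group means with correlations of -0.47 to 0.232, and 2 of 6 matched their own number best. No pairing was assumed, and these values cannot exclude one. The fit with the replicate block also called 0 genes. Depth limits Sphk1 and S1pr2, with as few as 22 and 36 reads in a heart.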
